A study of Mus musculus with 10 samples.

Results

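The interferon-stimulated genes described here are 47 mouse genes that cells switch on when interferon binds its receptor, taken by gene symbol from a table of RPKM values (reads scaled by the length of the gene and by the reads of the library). All 47 symbols had a row among the 23240 genes of the table. Of these, 46 passed the filter of at least 1 RPKM in at least 2 libraries that left 10905 genes for testing, and Ifit3 stayed under 1 RPKM in each library. RNA was sequenced from mouse bone-marrow progenitors of 5 groups with 2 libraries each. All mice carried the vav-Cre transgene, which expresses the Cre recombinase in blood-forming cells, together with either floxed Runx1 alleles (Runx1Δ/Δ) or intact Runx1 alleles (Runx1wt/wt). The sort took lin- sca- kit+ cells without CD41 and CD105 and then divided them by CD16/32 and CD150. The XMP gate (CD16/32+ CD150+) was taken from Runx1Δ/Δ marrow, the GMP gate (granulocyte-macrophage progenitors, CD16/32+ CD150-) from Runx1Δ/Δ and Runx1wt/wt marrow, and the MEP gate (megakaryocyte-erythroid progenitors, CD16/32- CD150+) likewise from Runx1Δ/Δ and Runx1wt/wt marrow. The labels give no age, sex or strain of the mice and no number of animals behind a library. The labels do not say whether both libraries of a group come from different mice. A p-value here is therefore set against the spread between libraries, which may be technical.

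Type I interferons bind a receptor that, through the Jak1 and Tyk2 kinases, activates a complex containing Stat2 and Irf9 that binds the interferon-stimulated response element in gene promoters. Interferon gamma acts through its own receptor and the gamma-activated site. The products block viral entry, translation and budding, sense foreign RNA and DNA, conjugate the ubiquitin-like protein Isg15 or prepare peptides for antigen presentation. Runx1 is a transcription factor of blood-forming cells, and many interferon-stimulated genes are transcribed at a low level without infection.

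Libraries held 20.8 to 54.9 M reads, fewest in Runx1wt/wt GMP replicate 2. For a gene of 1 kb, a single read is worth 0.0182 to 0.048 RPKM. Long genes (over 4842 bp) and short genes (under 1614 bp) were compared by their median deviation from each gene's own mean over the 10 libraries. On the log2 scale, long genes stood above short genes by 0.01 to 0.49 in libraries of lanes 4 and 5. They stood below by 0.30 to 0.93 in the 3 libraries of lanes 2 and 3. These are both Runx1wt/wt GMP libraries and Runx1wt/wt MEP replicate 1. Lanes 4 and 5 thus hold no Runx1wt/wt GMP library and, of Runx1wt/wt MEP, replicate 2 only. In GMP the sequencing lane coincides with the genotype, so lane and genotype cannot be told apart there. Xist, the RNA of the inactive X chromosome, was at 59.99 and 124 RPKM in XMP, and at 102 and 58.2 RPKM in Runx1Δ/Δ GMP against 9.91 and 1.54 RPKM in Runx1wt/wt GMP. In MEP, Xist was at 54.6 and 109.5 RPKM in Runx1Δ/Δ MEP against 2.90 and 31.1 RPKM in Runx1wt/wt MEP. Its part in the results was not tested. Runx1 itself was at 85.9 and 78.5 RPKM in XMP, and at 63.0 and 72.3 RPKM in Runx1Δ/Δ GMP against 28.5 and 26.8 RPKM in Runx1wt/wt GMP. In MEP, Runx1 was at 41.5 and 36.8 RPKM in Runx1Δ/Δ MEP against 17.2 and 25.5 RPKM in Runx1wt/wt MEP. A value over the whole gene cannot show the loss of the floxed part and so does not check the labels. The summed level of 7 GMP markers (Mpo, Elane and others) was 135 to 171 RPKM in XMP, 7780 to 8076 RPKM in Runx1Δ/Δ GMP, 11960 to 12120 RPKM in Runx1wt/wt GMP and 31.5 to 56.7 RPKM in the MEP groups. That of 8 MEP markers was 1136 to 1387 RPKM in XMP, 1103 to 1194 RPKM in Runx1Δ/Δ MEP, 1752 to 1910 RPKM in Runx1wt/wt MEP and at most 131.4 RPKM in the GMP groups, so the GMP and MEP labels matched their markers.

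Promoter sequences of 37 members were found among RefSeq promoters (mouse build GRCm38.p6), while the RPKM values rest on mm9. In the 250 bases before the gene start, 14 of 37 members (37.8%) held the interferon-stimulated response element, against 3.46% of 27025 genes with an entry. The element was searched as GAAA, any 2 bases and GAAA on either strand. A gene counted when any of its promoter entries held a match. The gamma-activated site TTCNNNGAA, which may overlap that element, was found in 7 of 37 (18.9%) against 8.13%, and the RUNX core TGTGGT on either strand in 6 of 37 (16.2%) against 15.9%. The 14 were Oas3, Oas1g, Oas1a, Ifit1, Ifit3, Rsad2, Isg15, Stat2, Ddx60, Bst2, Irgm1, Igtp, Gbp2 and Gbp3. Oasl1, Oasl2 and Ddx58 had a promoter entry without a match, which says only that these letters are not in this window. The promoters below were picked from the 14 with a match, as those of OAS members and of Ifit1, Rsad2 and Isg15. The printed stretches are the last 130 bases, from the promoter entry of each gene with the most matches there. Nearness of the element to the gene start is therefore partly set by this choice. The stretches show where in these bases the matches lie and how alike the promoters of the neighbouring genes Oas1g and Oas1a are. Each runs 5′ to 3′ on the strand of its gene and ends at the last base before the start, with the matches to that element in capitals. A match describes letters and is not shown to be bound.
Oas3 (chr5:120777660-120777789, minus strand): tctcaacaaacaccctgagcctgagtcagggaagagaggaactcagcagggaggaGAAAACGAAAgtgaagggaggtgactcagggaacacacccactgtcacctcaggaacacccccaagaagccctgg
Oas1g (chr5:120887614-120887743, minus strand): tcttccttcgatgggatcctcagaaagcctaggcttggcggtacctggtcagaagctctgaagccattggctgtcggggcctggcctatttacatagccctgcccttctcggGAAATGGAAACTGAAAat
Oas1a (chr5:120907526-120907655, minus strand): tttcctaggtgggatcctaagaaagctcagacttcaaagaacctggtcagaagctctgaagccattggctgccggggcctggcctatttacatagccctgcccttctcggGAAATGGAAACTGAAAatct
Ifit1 (chr19:34640759-34640888, plus strand): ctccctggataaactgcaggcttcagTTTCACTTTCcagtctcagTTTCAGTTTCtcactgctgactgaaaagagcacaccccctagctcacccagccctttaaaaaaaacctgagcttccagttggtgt
Rsad2 (chr12:26456453-26456582, minus strand): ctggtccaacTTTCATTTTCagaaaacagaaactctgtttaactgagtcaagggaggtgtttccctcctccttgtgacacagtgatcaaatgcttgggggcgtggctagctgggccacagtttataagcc
Isg15 (chr4:156200819-156200948, minus strand): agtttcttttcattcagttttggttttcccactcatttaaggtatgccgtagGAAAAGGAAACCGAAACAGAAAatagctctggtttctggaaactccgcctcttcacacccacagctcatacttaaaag
The matches began 75 bases before the start in Oas3, 18 and 12 in Oas1g, 20 and 14 in Oas1a, 104 and 85 in Ifit1, 120 in Rsad2, and 78, 72 and 66 in Isg15. Mx1, Mx2, Oas1b, Oas2, Dhx58, Usp18, Parp9, Parp14, Zbp1 and Rtp4 had no entry in the promoter table.

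Levels per length spread widely among the members. The highest were in antigen processing, where Psmb8 reached 308 RPKM and Psmb9 163 RPKM in their highest libraries, and in Bst2 (152 RPKM), Lgals3bp (117 RPKM) and Tap1 (77.8 RPKM). At the low end Ifit3 ranged over 0.0236 to 0.445 RPKM (2 to 41 reads), Mx2 over 0.574 to 1.08 RPKM, Mx1 over 0.212 to 2.08 RPKM and Ifit1 over 0.127 to 3.08 RPKM. When each member was set against its own mean over the 10 libraries, the median deviation on the log2 scale was 0.23 in both XMP libraries, -0.01 and 0.10 in Runx1Δ/Δ GMP against -0.41 and -0.58 in Runx1wt/wt GMP, and 0.27 and 0.39 in Runx1Δ/Δ MEP against -0.23 and -0.06 in Runx1wt/wt MEP. Both Runx1wt/wt GMP libraries were thus the lowest of the 10, with 6 and 5 of 46 members above their own mean, and both Runx1Δ/Δ MEP libraries the highest, with 39 each. In such bulk samples a smaller number of expressing cells and less RNA per cell cannot be told apart.

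**Figure D1:**
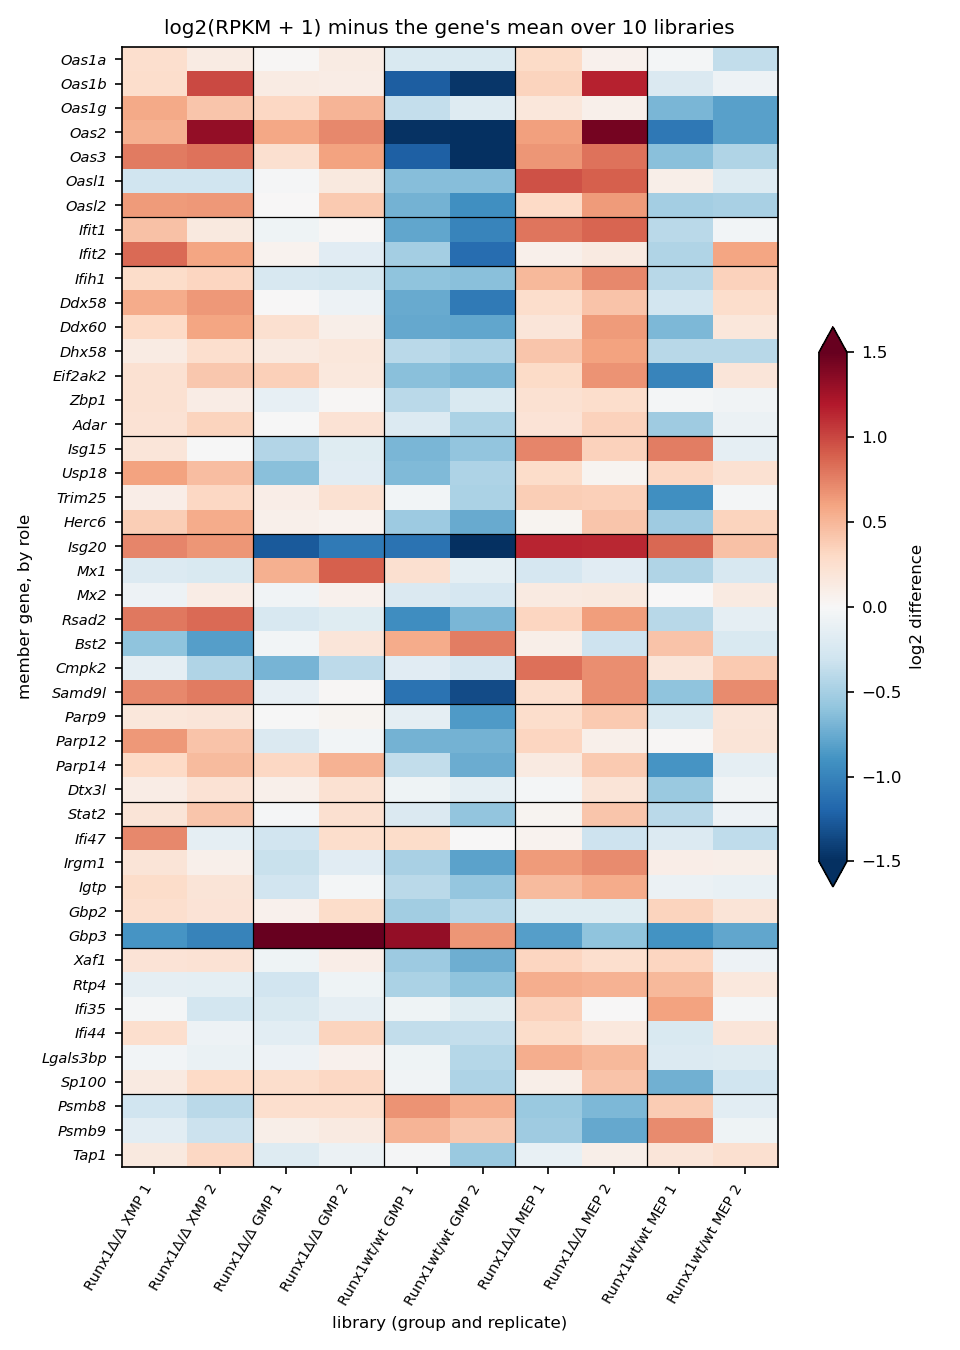
Each of the 46 tested members (rows, grouped by role) in each of the 10 libraries (columns), as log2(RPKM + 1) minus the gene's mean over all libraries; red is above and blue below that mean. The Runx1wt/wt GMP columns are blue in most rows (medians -0.41 and -0.58). Gbp3 (1.31 and 0.66), Psmb8, Psmb9, Bst2 and Ifi47 (0.28 and 0.006) are above their mean in both columns in these values as deposited.

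Deletion of Runx1 went with higher levels of most interferon-stimulated genes in GMP, where the sequencing lane coincides with the genotype. The summed level of the members, in which the most abundant weigh most, overlapped. It was 940.9 and 1017.6 RPKM in Runx1Δ/Δ GMP against 1031.3 and 928.8 RPKM in Runx1wt/wt GMP. By limma on log2(RPKM + 1) with Benjamini-Hochberg adjustment over 10905 genes, called at an adjusted p under 0.05, 8 of 46 members were higher (3.15% of all genes tested were called higher) and 0 were lower (2.07% of all genes). In either direction 5.22% of all genes were called. The 8 were Oas2, Oas3, Oas1b, Oasl2, Ifit1, Ddx58, Oasl1 and Oas1g, so that 6 of the 8 belong to the OAS family. The log2 difference was positive for 40 of 46 members (55.1% of all genes tested), with a median of 0.51 beside 0.05 for all genes, and differences on this scale understate the change of genes with low levels. In 36 members both Runx1Δ/Δ libraries lay above both Runx1wt/wt libraries (37.2% of all genes), and in 4, Bst2, Cmpk2, Psmb8 and Psmb9, below both (29.4% of all genes). The count of calls was 22 (21 higher, 1 lower) with a spread for each group, 19 (18 higher, 1 lower) with only the GMP libraries in the fit, 16 with the length trend removed, 3 among genes with a mean of at least 5 RPKM and 5 without a filter on low values. It was 2 without Runx1Δ/Δ GMP replicate 2 or Runx1wt/wt GMP replicate 2, 3 without Runx1Δ/Δ GMP replicate 1, 5 without Runx1wt/wt GMP replicate 1 or any 1 of the XMP and Runx1Δ/Δ MEP libraries, and 20 without either Runx1wt/wt MEP library.

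In MEP, 11 of 46 members were higher after deletion (3.97% of all genes tested were called higher) and 1, Psmb9, was lower (4.03% of all genes). The higher members were Oas2, Oas3, Ifit1, Oasl1, Oasl2, Dhx58, Oas1g, Sp100, Rsad2, Lgals3bp and Igtp. Of the calls in MEP only those of Oas2 and Ifit1 held with just the MEP libraries in the fit. The difference was positive for 39 of 46 members (53.3% of all genes), with a median of 0.40 beside 0.03. In 27 members both Runx1Δ/Δ libraries lay above both Runx1wt/wt libraries (21.6% of all genes), and in 4, Gbp2, Psmb8, Psmb9 and Tap1, below both (21.0% of all genes). The 12 calls became 0 with a spread for each group, 2 with only the MEP libraries in the fit, 7 in lanes 4 and 5 alone and 7 among genes with a mean of at least 5 RPKM. They became 3 without Runx1Δ/Δ MEP replicate 2, 6 without Runx1Δ/Δ MEP replicate 1, 7 without Runx1wt/wt MEP replicate 1 or either Runx1Δ/Δ GMP library, and 25 without Runx1wt/wt MEP replicate 2.

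The comparisons in GMP and MEP share no library, but they are not independent. Both come from the same fit, with the spread pooled over the 10 libraries. On the log2 scale, long genes lay below short genes in both Runx1wt/wt GMP libraries (-0.3 and -0.36). The same held in Runx1wt/wt MEP replicate 1 (-0.93), so this length trend enters both comparisons. Ifit1, Oas1g, Oas2, Oas3, Oasl1 and Oasl2 were higher in both, and 37 of 46 members had a positive difference in both. In 26 members (56.5%) the genotypes did not overlap and differed in the same direction in both gates, beside 25.9% of all genes tested. For the difference between the deletion effects limma called 0 of the 46 members (1.74% of all genes, 0.954% with the larger effect in GMP and 0.789% with the larger in MEP), with 2 members, Gbp2 and Cmpk2, at an unadjusted p under 0.05. That count was 1 without the mean-variance trend and 1 with the length trend removed, and 2 when either Runx1wt/wt MEP library was left out.

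**Figure D2:**
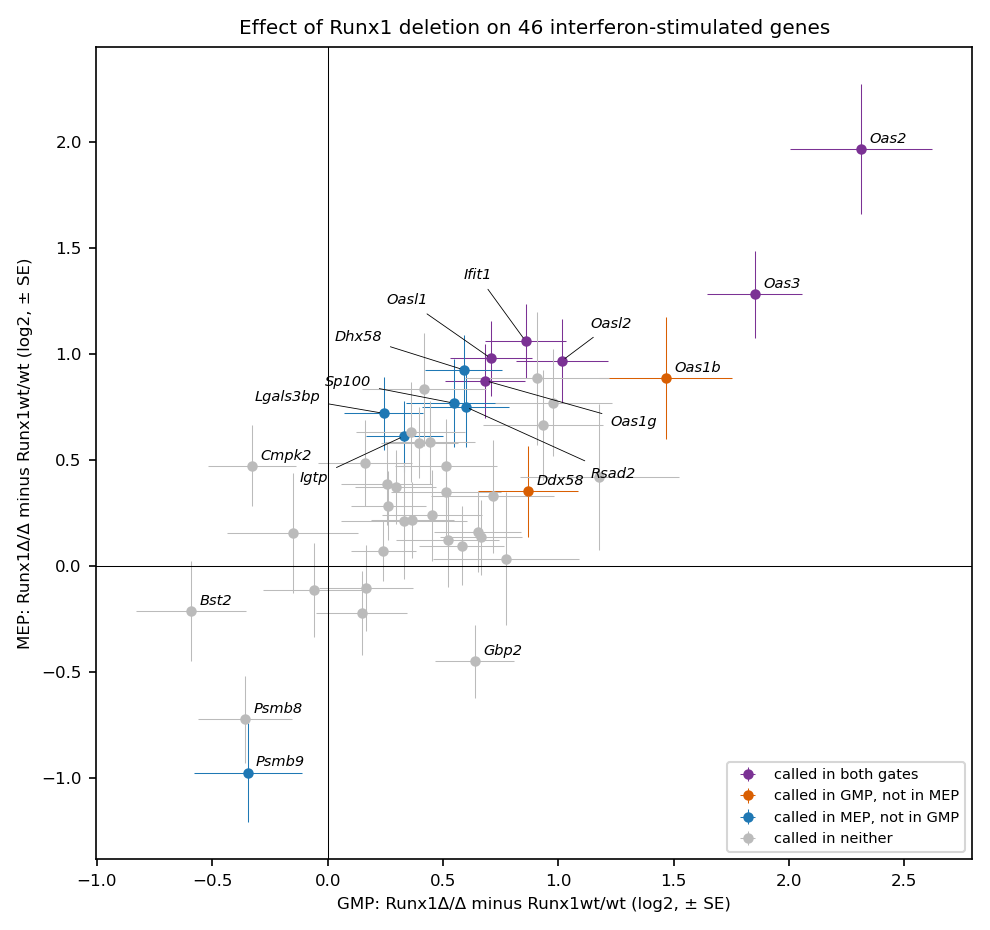
Log2 difference ± SE between Runx1Δ/Δ and Runx1wt/wt for the 46 tested members, in GMP (x axis) and in MEP (y axis); colours give the call in each gate. Oas2 and Oas3 stand highest on both axes (2.31 and 1.97, 1.85 and 1.28), Psmb8 and Psmb9 are below 0 on both as deposited (Psmb9 is at 0.10 in GMP with the length trend removed), and Gbp2 and Cmpk2 differ in sign between the gates.

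The OAS enzymes bind double-stranded RNA and make oligoadenylates, which trigger the degradation of RNA. Of the 7 members of this family 6 were higher in Runx1Δ/Δ GMP and 5 in Runx1Δ/Δ MEP, and the difference was positive for all 7 in both gates. Oas2 was at 7.31 and 13.3 RPKM in XMP, and at 7.57 and 8.47 RPKM in Runx1Δ/Δ GMP against 1.05 and 0.608 RPKM in Runx1wt/wt GMP. In MEP, Oas2 was at 7.77 and 14.5 RPKM in Runx1Δ/Δ MEP against 1.74 and 2.26 RPKM in Runx1wt/wt MEP. The Runx1Δ/Δ libraries were all above all 4 Runx1wt/wt libraries, and replicate 2 was the higher one in XMP and in Runx1Δ/Δ MEP. The difference was 2.31 ± 0.31, adjusted p = 0.00121 in GMP and 1.97 ± 0.31, adjusted p = 0.00282 in MEP. Oas3, the longest OAS protein and the neighbour of Oas2, stood at 11.9 and 12.2 RPKM in XMP, and at 7.86 and 10.4 RPKM in Runx1Δ/Δ GMP against 2.20 and 1.43 RPKM in Runx1wt/wt GMP. In MEP, Oas3 was at 10.9 and 12.2 RPKM in Runx1Δ/Δ MEP against 3.86 and 4.49 RPKM in Runx1wt/wt MEP. No Runx1Δ/Δ library fell to the level of a Runx1wt/wt library, and the difference was 1.85 ± 0.21, adjusted p = 0.000401 in GMP and 1.28 ± 0.21, adjusted p = 0.00328 in MEP. Both GMP calls held under each alternative run. The MEP calls were lost with a spread for each group (adjusted p = 0.0614 for Oas2 and 0.0744 for Oas3), that of Oas2 also in lanes 4 and 5 alone (0.0552) and that of Oas3 with only the MEP libraries in the fit (0.052).

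Oas1b, which is truncated in many laboratory mouse strains, was at 5.06 and 9.005 RPKM in XMP, and at 4.50 and 4.43 RPKM in Runx1Δ/Δ GMP against 1.13 and 0.835 RPKM in Runx1wt/wt GMP. In MEP, Oas1b was at 5.33 and 10.2 RPKM in Runx1Δ/Δ MEP against 3.34 and 3.78 RPKM in Runx1wt/wt MEP. As for Oas2, replicate 2 was the higher library in XMP and in Runx1Δ/Δ MEP, and no Runx1Δ/Δ library was as low as a Runx1wt/wt library of its gate. The difference was 1.46 ± 0.29, adjusted p = 0.0132 in GMP, and 0.89 ± 0.29, adjusted p = 0.0955 in MEP. Leaving out any 1 of the 4 GMP libraries ended the GMP call (log2 differences 1.36 to 1.57). It was also lost by limma without a filter (adjusted p = 0.0717). Oas1g was at 6.03 and 5.30 RPKM in XMP, and at 4.88 and 5.72 RPKM in Runx1Δ/Δ GMP against 2.69 and 3.15 RPKM in Runx1wt/wt GMP. In MEP, Oas1g was at 4.31 and 3.99 RPKM in Runx1Δ/Δ MEP against 1.94 and 1.68 RPKM in Runx1wt/wt MEP. Oas1g did not overlap between the genotypes in either gate and differed by 0.68 ± 0.17, adjusted p = 0.0486 in GMP and by 0.88 ± 0.17, adjusted p = 0.0115 in MEP. Its GMP call ended without any 1 of the 4 GMP libraries (log2 differences 0.59 to 0.78). The same held without any 1 of the XMP and Runx1Δ/Δ MEP libraries (0.68). Further losses by limma came with a pseudocount of 0.1 RPKM (adjusted p = 0.0664), without a filter (0.0984) and with quantile normalization (0.144). The MEP call of Oas1g ended without Runx1Δ/Δ MEP replicate 1 (log2 difference 0.83) or 2 (0.92). It was also lost with only the MEP libraries in the fit (adjusted p = 0.118 by limma) or a spread for each group (0.134). Oas1a, its neighbour, had the highest level of the family at 25.8 and 23.4 RPKM in XMP, and at 21.6 and 23.3 RPKM in Runx1Δ/Δ GMP against 18.1 and 18.1 RPKM in Runx1wt/wt GMP. In MEP, Oas1a was at 26.3 and 22.4 RPKM in Runx1Δ/Δ MEP against 20.9 and 16.4 RPKM in Runx1wt/wt MEP. The genotypes did not overlap in either gate, but neither difference passed the test (0.29 ± 0.17, adjusted p = 0.33 in GMP and 0.37 ± 0.17, adjusted p = 0.243 in MEP). Oas1a and Oas1g share 57.6% and 54.7% of the 50-base words of their longest transcripts with each other or with Oas1b, so their separate levels are uncertain.

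Oasl1, an OAS-like protein that restrains translation of Irf7 in mouse, was at 4.14 and 4.14 RPKM in XMP, and at 5.25 and 6.02 RPKM in Runx1Δ/Δ GMP against 3.06 and 3.05 RPKM in Runx1wt/wt GMP. In MEP, Oasl1 was at 11.2 and 10.8 RPKM in Runx1Δ/Δ MEP against 5.69 and 4.53 RPKM in Runx1wt/wt MEP. Its level in XMP was below that in both other Runx1Δ/Δ groups, and the genotypes did not overlap in either gate. It differed by 0.71 ± 0.18, adjusted p = 0.0435 in GMP and by 0.98 ± 0.18, adjusted p = 0.00636 in MEP. Its GMP call ended without any 1 of the 4 GMP libraries (log2 differences 0.62 to 0.79). The same held without any 1 of the XMP and Runx1Δ/Δ MEP libraries (0.71). Further losses by limma came without a filter (adjusted p = 0.0664), with a mean of at least 5 RPKM (0.0754) and with quantile normalization (0.135). The MEP call of Oasl1 ended without Runx1Δ/Δ MEP replicate 1 (log2 difference 0.95) or 2 (1.0). It was also lost with only the MEP libraries in the fit (adjusted p = 0.129 by limma) or a spread for each group (0.0707). Oasl2, which lies next to it, was at 14.9 and 15.0 RPKM in XMP, and at 9.29 and 12.4 RPKM in Runx1Δ/Δ GMP against 5.23 and 4.40 RPKM in Runx1wt/wt GMP. In MEP, Oasl2 was at 11.5 and 15.0 RPKM in Runx1Δ/Δ MEP against 6.16 and 6.31 RPKM in Runx1wt/wt MEP. The Runx1Δ/Δ libraries were above the Runx1wt/wt libraries of both gates, by 1.01 ± 0.20, adjusted p = 0.0124 in GMP and by 0.97 ± 0.20, adjusted p = 0.0132 in MEP. Its GMP call was lost without Runx1wt/wt GMP replicate 2 (log2 difference 0.91) or Runx1Δ/Δ GMP replicate 2 (0.83). The MEP call of Oasl2 ended without Runx1Δ/Δ MEP replicate 2 (0.79) and in lanes 4 and 5 alone (0.95). It was also lost with only the MEP libraries in the fit (adjusted p = 0.132 by limma) or a spread for each group (0.205).

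**Figure D3:**
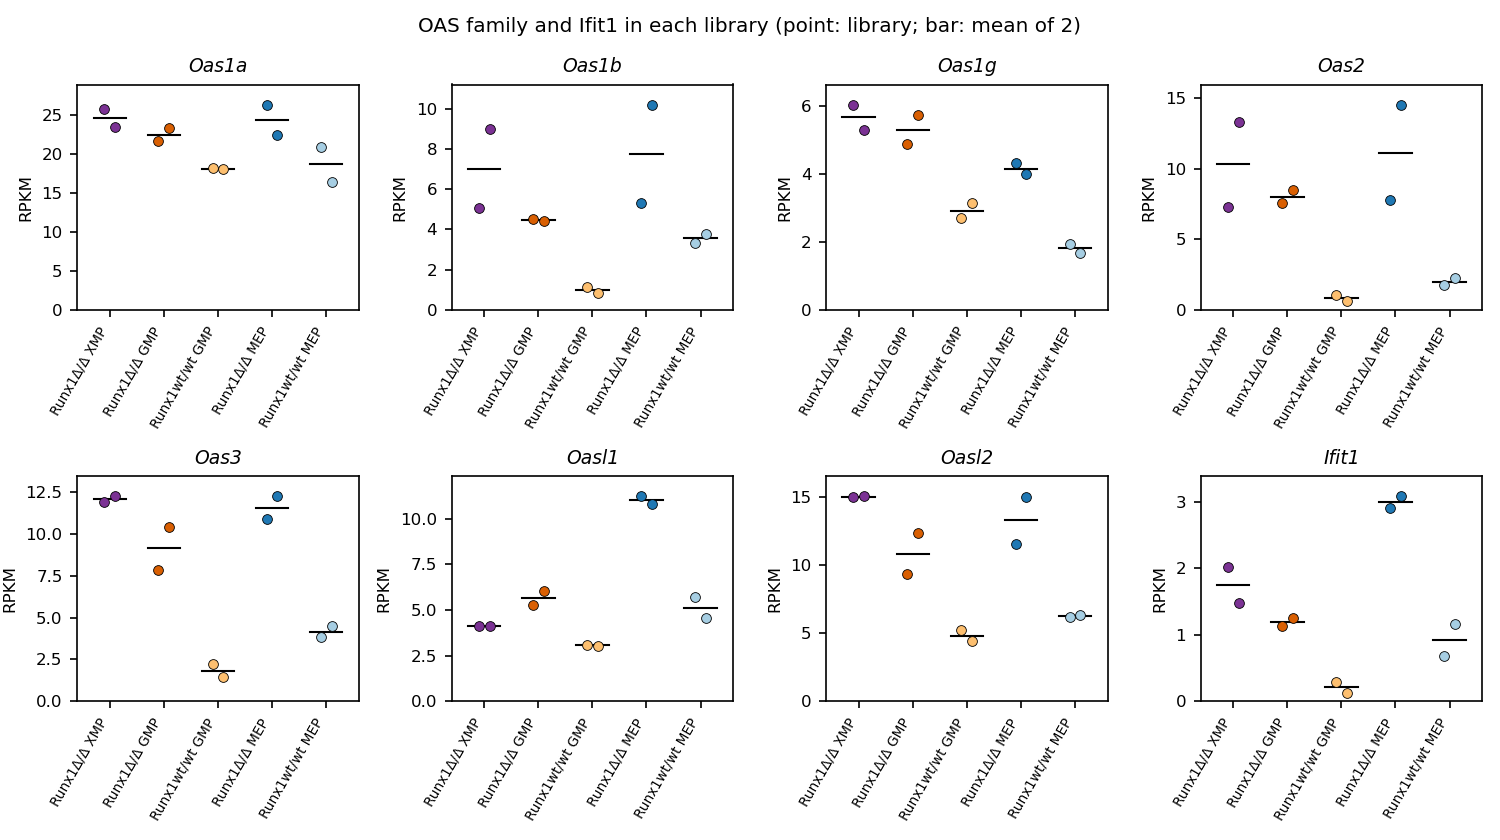
RPKM of the 7 OAS members and Ifit1 in each library (points) with the mean of the 2 libraries of a group (bars), for XMP, Runx1Δ/Δ GMP, Runx1wt/wt GMP, Runx1Δ/Δ MEP and Runx1wt/wt MEP. In each gate the Runx1Δ/Δ points lie above the Runx1wt/wt points for all 8 genes, and Oas1a shows the smallest relative step.

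The IFIT proteins bind viral RNA and block its translation, and 1 of the 2 tested members was higher in each gate. Ifit1, which binds RNA with an unmethylated cap, was at 2.02 and 1.48 RPKM in XMP, and at 1.13 and 1.26 RPKM in Runx1Δ/Δ GMP against 0.295 and 0.127 RPKM in Runx1wt/wt GMP. In MEP, Ifit1 was at 2.90 and 3.08 RPKM in Runx1Δ/Δ MEP against 0.687 and 1.17 RPKM in Runx1wt/wt MEP. The groups did not overlap within a gate, though the Runx1wt/wt GMP values rest on 31 and 7 reads. It differed by 0.86 ± 0.18, adjusted p = 0.016 in GMP and by 1.06 ± 0.18, adjusted p = 0.00391 in MEP. The GMP call was lost without Runx1wt/wt GMP replicate 2 (log2 difference 0.76) or either Runx1Δ/Δ GMP library (0.9 and 0.81). The MEP call held without any 1 library and was lost with a spread for each group (adjusted p = 0.0592 by limma). Ifit2, which lies next to Ifit3, was at 9.56 and 7.86 RPKM in XMP, and at 5.10 and 4.24 RPKM in Runx1Δ/Δ GMP against 3.11 and 1.66 RPKM in Runx1wt/wt GMP. In MEP, Ifit2 was at 5.18 and 5.43 RPKM in Runx1Δ/Δ MEP against 3.28 and 7.83 RPKM in Runx1wt/wt MEP. Both XMP libraries were above the other 8, and the Runx1wt/wt MEP libraries lay on either side of the Runx1Δ/Δ MEP libraries. It was not called in GMP (0.77 ± 0.32, adjusted p = 0.181) or in MEP (0.04 ± 0.32, adjusted p = 0.959). Ifit3 was at 0.203 and 0.103 RPKM in XMP, and at 0.255 and 0.445 RPKM in Runx1Δ/Δ GMP against 0.126 and 0.120 RPKM in Runx1wt/wt GMP. In MEP, Ifit3 was at 0.134 and 0.0236 RPKM in Runx1Δ/Δ MEP against 0.165 and 0.176 RPKM in Runx1wt/wt MEP. It was not tested, and 51.2% of its 50-base words are shared with Ifit3b.

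Sensors of foreign RNA and DNA and the enzymes that modify double-stranded RNA had a positive difference for all 7 members in both gates, and 1 of 7 was called higher in each. Ddx58 encodes RIG-I, which senses RNA with a triphosphate end, and was at 10.8 and 11.6 RPKM in XMP, and at 7.03 and 6.601 RPKM in Runx1Δ/Δ GMP against 3.77 and 2.84 RPKM in Runx1wt/wt GMP. In MEP, Ddx58 was at 8.60 and 9.83 RPKM in Runx1Δ/Δ MEP against 5.603 and 8.65 RPKM in Runx1wt/wt MEP. Its GMP genotypes did not overlap (0.87 ± 0.22, adjusted p = 0.0427), while Runx1wt/wt MEP replicate 2 reached the level of Runx1Δ/Δ MEP (0.35 ± 0.22, adjusted p = 0.365). The GMP call ended without any 1 of the GMP libraries (log2 differences 0.71 to 1.02) or of the Runx1Δ/Δ MEP and XMP libraries (0.87). It was also lost by limma without a filter (adjusted p = 0.0914) and with a mean of at least 5 RPKM (0.0616). Dhx58 encodes LGP2, a helicase that tunes RIG-I-like sensing, and was at 10.8 and 11.8 RPKM in XMP, and at 10.9 and 11.1 RPKM in Runx1Δ/Δ GMP against 7.13 and 6.84 RPKM in Runx1wt/wt GMP. In MEP, Dhx58 was at 13.4 and 15.5 RPKM in Runx1Δ/Δ MEP against 7.10 and 7.09 RPKM in Runx1wt/wt MEP. Both Runx1wt/wt groups sat near 7 RPKM and all Runx1Δ/Δ libraries above 10 RPKM. It was called in MEP (0.93 ± 0.17, adjusted p = 0.00632) and not in GMP (0.59 ± 0.17, adjusted p = 0.0703). The MEP call of Dhx58 ended without Runx1Δ/Δ MEP replicate 2 (log2 difference 0.83). It was also lost with only the MEP libraries in the fit (adjusted p = 0.13 by limma) or a spread for each group (0.0744). Ifih1 encodes MDA5, the sensor of long double-stranded RNA, and was at 6.29 and 6.51 RPKM in XMP, and at 4.07 and 3.99 RPKM in Runx1Δ/Δ GMP against 2.95 and 2.89 RPKM in Runx1wt/wt GMP. In MEP, Ifih1 was at 7.42 and 8.85 RPKM in Runx1Δ/Δ MEP against 3.51 and 6.65 RPKM in Runx1wt/wt MEP. Eif2ak2, the kinase that stops translation when it binds double-stranded RNA, was at 13.6 and 15.5 RPKM in XMP, and at 15.0 and 12.9 RPKM in Runx1Δ/Δ GMP against 7.08 and 6.81 RPKM in Runx1wt/wt GMP. In MEP, Eif2ak2 was at 14.2 and 18.8 RPKM in Runx1Δ/Δ MEP against 5.26 and 13.1 RPKM in Runx1wt/wt MEP. Its Runx1wt/wt MEP libraries stood far apart, and neither Eif2ak2 nor Ifih1 was called for deletion. Adar, which edits adenosine in double-stranded RNA, was at 20.4 and 22.2 RPKM in XMP, and at 17.3 and 20.4 RPKM in Runx1Δ/Δ GMP against 14.9 and 12.3 RPKM in Runx1wt/wt GMP. In MEP, Adar was at 20.2 and 22.4 RPKM in Runx1Δ/Δ MEP against 11.7 and 16.3 RPKM in Runx1wt/wt MEP. Adar did not overlap between the genotypes of either gate and was not called. Ddx60, a helicase of antiviral signalling, ranged over 0.505 to 3.01 RPKM, and Zbp1, a sensor of nucleic acids in the Z form, over 1.87 to 3.56 RPKM, with differences between 0.26 and 0.93 on the log2 scale and no call in either gate.

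Isg15 is a ubiquitin-like protein that is attached to other proteins by Herc6, its main ligase in mouse, and removed by Usp18, and none of these 3 genes nor Trim25 was called for deletion. Isg15 was at 10.7 and 9.26 RPKM in XMP, and at 6.6002 and 8.09 RPKM in Runx1Δ/Δ GMP against 5.38 and 5.84 RPKM in Runx1wt/wt GMP. In MEP, Isg15 was at 16.01 and 12.0 RPKM in Runx1Δ/Δ MEP against 16.5 and 8.39 RPKM in Runx1wt/wt MEP. Runx1wt/wt MEP replicate 1 was above both Runx1Δ/Δ MEP libraries and replicate 2 below both, while the GMP genotypes did not overlap. Isg15, with 756 bp the shortest member, differed by 0.33 ± 0.27, adjusted p = 0.482 in GMP and by 0.21 ± 0.27, adjusted p = 0.676 in MEP. With the length trend removed it was called in both gates (0.81 ± 0.16, adjusted p = 0.0121 in GMP, and 0.60 ± 0.16, adjusted p = 0.0414 in MEP). Usp18, which also restrains the interferon receptor, was at 8.86 and 7.92 RPKM in XMP, and at 3.21 and 4.75 RPKM in Runx1Δ/Δ GMP against 3.10 and 3.68 RPKM in Runx1wt/wt GMP. In MEP, Usp18 was at 6.85 and 5.68 RPKM in Runx1Δ/Δ MEP against 7.01 and 6.57 RPKM in Runx1wt/wt MEP. The genotypes overlapped in both gates. Trim25, a ubiquitin ligase that activates RIG-I, was at 16.9 and 19.7 RPKM in XMP, and at 17.0 and 18.6 RPKM in Runx1Δ/Δ GMP against 15.3 and 11.1 RPKM in Runx1wt/wt GMP. In MEP, Trim25 was at 20.5 and 20.4 RPKM in Runx1Δ/Δ MEP against 7.81 and 15.4 RPKM in Runx1wt/wt MEP. All 4 Runx1Δ/Δ libraries of GMP and MEP lay above the Runx1wt/wt libraries of their gate, with differences of 0.42 ± 0.27, adjusted p = 0.366 in GMP and 0.83 ± 0.27, adjusted p = 0.09 in MEP. Herc6 ranged over 2.03 to 6.51 RPKM and was not called (0.71 ± 0.27, adjusted p = 0.147 in GMP and 0.33 ± 0.27, adjusted p = 0.492 in MEP).

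Direct antiviral effectors did not move as 1 group, with 0 of 7 called in GMP and 1, Rsad2, higher in MEP. Rsad2 encodes viperin, which makes a chain-terminating nucleotide, and was at 6.84 and 7.15 RPKM in XMP, and at 2.85 and 2.996 RPKM in Runx1Δ/Δ GMP against 1.38 and 1.82 RPKM in Runx1wt/wt GMP. In MEP, Rsad2 was at 4.68 and 5.99 RPKM in Runx1Δ/Δ MEP against 2.39 and 3.13 RPKM in Runx1wt/wt MEP. The genotypes did not overlap in either gate, and the difference was 0.60 ± 0.19, adjusted p = 0.1 in GMP and 0.75 ± 0.19, adjusted p = 0.0342 in MEP. The MEP call ended without Runx1wt/wt MEP replicate 1 (log2 difference 0.61) or either Runx1Δ/Δ MEP library (0.9 and 0.6). The same held without 1 of the Runx1Δ/Δ GMP or XMP libraries (0.75 each) and in lanes 4 and 5 alone (0.61). Rsad2 also lost it by limma without a filter (adjusted p = 0.0919), with only the MEP libraries (0.26) or a spread for each group (0.216). Cmpk2, a mitochondrial nucleotide kinase and the neighbour of Rsad2, was at 9.80 and 7.68 RPKM in XMP, and at 6.35 and 8.08 RPKM in Runx1Δ/Δ GMP against 9.56 and 8.98 RPKM in Runx1wt/wt GMP. In MEP, Cmpk2 was at 20.1 and 18.3 RPKM in Runx1Δ/Δ MEP against 12.5 and 14.6 RPKM in Runx1wt/wt MEP. Both Runx1Δ/Δ libraries were below the Runx1wt/wt libraries in GMP and above them in MEP, and neither difference was called (-0.33 ± 0.19, adjusted p = 0.322 in GMP and 0.47 ± 0.19, adjusted p = 0.178 in MEP). Samd9l, which restrains viral replication and cell growth, was at 10.2 and 10.7 RPKM in XMP, and at 5.27 and 5.87 RPKM in Runx1Δ/Δ GMP against 2.14 and 1.67 RPKM in Runx1wt/wt GMP. In MEP, Samd9l was at 7.07 and 10.03 RPKM in Runx1Δ/Δ MEP against 3.48 and 10.1 RPKM in Runx1wt/wt MEP. Both Runx1wt/wt GMP libraries were the lowest, the Runx1wt/wt MEP libraries lay on either side of both Runx1Δ/Δ MEP libraries, and it was not called (1.18 ± 0.34, adjusted p = 0.0782 in GMP and 0.42 ± 0.34, adjusted p = 0.501 in MEP). Bst2, or tetherin, holds budding virus at the cell surface and was at 58.0 and 49.6 RPKM in XMP, and at 86.3 and 101 RPKM in Runx1Δ/Δ GMP against 131 and 152 RPKM in Runx1wt/wt GMP. In MEP, Bst2 was at 94.8 and 71.5 RPKM in Runx1Δ/Δ MEP against 120.2 and 75.8 RPKM in Runx1wt/wt MEP. Both Runx1Δ/Δ GMP libraries were below both Runx1wt/wt GMP libraries, and the difference did not pass the test (-0.59 ± 0.24, adjusted p = 0.171). With the length trend removed Bst2 differed by -0.12 in GMP and by 0.17 in MEP, against -0.21 in MEP as deposited. Isg20, an exonuclease that degrades RNA, was at 33.2 and 31.4 RPKM in XMP, and at 7.56 and 8.86 RPKM in Runx1Δ/Δ GMP against 8.54 and 6.07 RPKM in Runx1wt/wt GMP. In MEP, Isg20 was at 44.3 and 43.9 RPKM in Runx1Δ/Δ MEP against 36.3 and 26.7 RPKM in Runx1wt/wt MEP. Its MEP genotypes did not overlap, but its difference was not called in MEP (0.49 ± 0.20, adjusted p = 0.19) or in GMP (0.16 ± 0.20, adjusted p = 0.651). Mx1, a dynamin-like GTPase against influenza virus that is defective in many laboratory mouse strains, was at 0.442 and 0.409 RPKM in XMP, and at 1.40 and 2.08 RPKM in Runx1Δ/Δ GMP against 0.962 and 0.4998 RPKM in Runx1wt/wt GMP. In MEP, Mx1 was at 0.396 and 0.476 RPKM in Runx1Δ/Δ MEP against 0.212 and 0.407 RPKM in Runx1wt/wt MEP. Its level was highest in Runx1Δ/Δ GMP, and the difference was 0.66 ± 0.18, adjusted p = 0.0569 in GMP and 0.14 ± 0.18, adjusted p = 0.683 in MEP. Mx2, its relative, was not called (0.24 ± 0.14, adjusted p = 0.324 in GMP and 0.07 ± 0.14, adjusted p = 0.795 in MEP).

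Parp9 and Dtx3l form a complex that adds ubiquitin and ADP-ribose, Parp14 and Parp12 also transfer ADP-ribose, and Parp14, Dtx3l and Parp9 are neighbours in the genome. None of the 4 was called for deletion, and all 4 had a positive difference in both gates, from 0.26 to 0.98 in GMP and 0.10 to 0.77 in MEP. Parp14 was at 9.88 and 11.3 RPKM in XMP, and at 9.98 and 11.7 RPKM in Runx1Δ/Δ GMP against 5.81 and 4.28 RPKM in Runx1wt/wt GMP. In MEP, Parp14 was at 8.65 and 10.6 RPKM in Runx1Δ/Δ MEP against 3.79 and 7.004 RPKM in Runx1wt/wt MEP. The genotypes did not overlap, and Parp14 came nearest to a call in GMP (0.98 ± 0.25, adjusted p = 0.0505). Parp12 was at 11.3 and 9.61 RPKM in XMP, and at 5.79 and 6.69 RPKM in Runx1Δ/Δ GMP against 3.83 and 3.83 RPKM in Runx1wt/wt GMP. In MEP, Parp12 was at 8.88 and 7.30 RPKM in Runx1Δ/Δ MEP against 6.96 and 8.01 RPKM in Runx1wt/wt MEP. In GMP the genotypes stood apart (0.58 ± 0.18, adjusted p = 0.102), and in MEP they overlapped. Parp9 ranged over 5.72 to 15.0 RPKM and Dtx3l over 10.3 to 18.5 RPKM, both without overlap between the genotypes of a gate. Stat2, the transducer that pairs with Irf9, was at 10.4 and 12.3 RPKM in XMP, and at 8.85 and 10.8 RPKM in Runx1Δ/Δ GMP against 7.58 and 5.62 RPKM in Runx1wt/wt GMP. In MEP, Stat2 was at 9.25 and 12.3 RPKM in Runx1Δ/Δ MEP against 6.52 and 8.45 RPKM in Runx1wt/wt MEP. Both Runx1Δ/Δ libraries were above both Runx1wt/wt libraries in each gate, without a call (0.51 ± 0.22, adjusted p = 0.2 in GMP and 0.47 ± 0.22, adjusted p = 0.241 in MEP).

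The interferon-inducible GTPases guard membranes around intracellular pathogens, and of 5 members 1, Igtp, was higher in Runx1Δ/Δ MEP and 0 were called in GMP. Igtp was at 18.4 and 17.4 RPKM in XMP, and at 12.1 and 14.7 RPKM in Runx1Δ/Δ GMP against 11.1 and 9.74 RPKM in Runx1wt/wt GMP. In MEP, Igtp was at 21.3 and 22.5 RPKM in Runx1Δ/Δ MEP against 14.1 and 13.8 RPKM in Runx1wt/wt MEP. The genotypes did not overlap, with a difference of 0.61 ± 0.17, adjusted p = 0.0486 in MEP and 0.33 ± 0.17, adjusted p = 0.265 in GMP. The MEP call was kept in 1 of the 10 fits with 1 library left out, that without Runx1wt/wt MEP replicate 2. In the other 9 the log2 difference was 0.58 to 0.65. Igtp also lost it by limma with a mean of at least 5 RPKM (adjusted p = 0.0574), only the MEP libraries (0.278) or a spread for each group (0.353). Irgm1, its regulatory relative, was at 31.7 and 29.3 RPKM in XMP, and at 21.8 and 24.5 RPKM in Runx1Δ/Δ GMP against 19.4 and 15.4 RPKM in Runx1wt/wt GMP. In MEP, Irgm1 was at 43.8 and 45.9 RPKM in Runx1Δ/Δ MEP against 29.7 and 29.5 RPKM in Runx1wt/wt MEP. It was not called in MEP (0.58 ± 0.17, adjusted p = 0.0585). Gbp2, a guanylate-binding protein, was at 9.15 and 8.80 RPKM in XMP, and at 7.88 and 9.31 RPKM in Runx1Δ/Δ GMP against 4.95 and 5.35 RPKM in Runx1wt/wt GMP. In MEP, Gbp2 was at 6.49 and 6.49 RPKM in Runx1Δ/Δ MEP against 9.70 and 8.76 RPKM in Runx1wt/wt MEP. Both Runx1Δ/Δ libraries lay above Runx1wt/wt in GMP and below Runx1wt/wt in MEP, and neither difference passed the test (0.64 ± 0.17, adjusted p = 0.0589 in GMP and -0.45 ± 0.17, adjusted p = 0.155 in MEP). Gbp3 was at 3.26 and 2.93 RPKM in XMP, and at 21.3 and 21.5 RPKM in Runx1Δ/Δ GMP against 18.6 and 11.4 RPKM in Runx1wt/wt GMP. In MEP, Gbp3 was at 3.44 and 4.19 RPKM in Runx1Δ/Δ MEP against 3.23 and 3.59 RPKM in Runx1wt/wt MEP. It was high in both GMP groups and was not called for deletion (0.52 ± 0.22, adjusted p = 0.196 in GMP and 0.12 ± 0.22, adjusted p = 0.769 in MEP). Ifi47 was at 35.2 and 19.0 RPKM in XMP, and at 17.1 and 25.4 RPKM in Runx1Δ/Δ GMP against 25.7 and 21.1 RPKM in Runx1wt/wt GMP. In MEP, Ifi47 was at 21.8 and 16.7 RPKM in Runx1Δ/Δ MEP against 18.2 and 15.97 RPKM in Runx1wt/wt MEP. Its genotypes overlapped in both gates.

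Of the 6 remaining members outside antigen processing, Lgals3bp and Sp100 were higher in Runx1Δ/Δ MEP and none was called in GMP. Lgals3bp, a secreted glycoprotein that binds galectins, was at 77.2 and 74.4 RPKM in XMP, and at 75.5 and 83.4 RPKM in Runx1Δ/Δ GMP against 76.2 and 58.7 RPKM in Runx1wt/wt GMP. In MEP, Lgals3bp was at 117 and 112 RPKM in Runx1Δ/Δ MEP against 68.8 and 69.4 RPKM in Runx1wt/wt MEP. Runx1Δ/Δ MEP stood above all other groups, and the difference was 0.72 ± 0.17, adjusted p = 0.0269 in MEP and 0.24 ± 0.17, adjusted p = 0.41 in GMP. The MEP call ended without Runx1wt/wt MEP replicate 1 (log2 difference 0.71), either Runx1Δ/Δ MEP library (0.69 and 0.75) or either Runx1Δ/Δ GMP library (0.72). It was also lost with only the MEP libraries in the fit (adjusted p = 0.157 by limma) or a spread for each group (0.243). Sp100, a scaffold of nuclear bodies, was at 37.2 and 41.7 RPKM in XMP, and at 40.7 and 42.1 RPKM in Runx1Δ/Δ GMP against 32.3 and 24.2 RPKM in Runx1wt/wt GMP. In MEP, Sp100 was at 35.9 and 45.7 RPKM in Runx1Δ/Δ MEP against 20.004 and 27.3 RPKM in Runx1wt/wt MEP. The genotypes did not overlap in either gate, with 0.77 ± 0.21, adjusted p = 0.047 in MEP and 0.55 ± 0.21, adjusted p = 0.154 in GMP. The MEP call was kept in 1 of the 10 fits with 1 library left out, that without Runx1wt/wt MEP replicate 2. In the other 9 the log2 difference was 0.55 to 0.94. Sp100 also lost it by limma without a filter (adjusted p = 0.0957), with a mean of at least 5 RPKM (0.061) or without the mean-variance trend (0.054). With only the MEP libraries in the fit (0.199) and a spread for each group (0.265) it was lost too. Rtp4, a chaperone of receptors, was at 10.3 and 10.2 RPKM in XMP, and at 9.12 and 10.8 RPKM in Runx1Δ/Δ GMP against 7.85 and 7.10 RPKM in Runx1wt/wt GMP. In MEP, Rtp4 was at 17.0 and 16.8 RPKM in Runx1Δ/Δ MEP against 16.2 and 12.7 RPKM in Runx1wt/wt MEP. Xaf1, which counters an inhibitor of apoptosis, was at 4.07 and 4.11 RPKM in XMP, and at 3.19 and 3.69 RPKM in Runx1Δ/Δ GMP against 2.02 and 1.64 RPKM in Runx1wt/wt GMP. In MEP, Xaf1 was at 4.49 and 4.22 RPKM in Runx1Δ/Δ MEP against 4.51 and 3.17 RPKM in Runx1wt/wt MEP. Ifi35, which takes part in innate signalling, was at 23.8 and 19.9 RPKM in XMP, and at 20.6 and 21.97 RPKM in Runx1Δ/Δ GMP against 23.1 and 21.3 RPKM in Runx1wt/wt GMP. In MEP, Ifi35 was at 31.1 and 24.4 RPKM in Runx1Δ/Δ MEP against 37.5 and 23.7 RPKM in Runx1wt/wt MEP. Its genotypes overlapped in both gates. Ifi44 ranged over 1.23 to 2.65 RPKM, and none of these 4 was called for deletion.

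In antigen processing 0 of 3 members were higher after deletion in either gate, and 1, Psmb9, was lower in MEP. Psmb8 and Psmb9 encode catalytic subunits of the immunoproteasome, and Tap1, between them in the genome, is a chain of the transporter that carries peptides to class I molecules. Psmb9 was at 88.4 and 78.8 RPKM in XMP, and at 105 and 108 RPKM in Runx1Δ/Δ GMP against 141 and 131 RPKM in Runx1wt/wt GMP. In MEP, Psmb9 was at 68.3 and 57.8 RPKM in Runx1Δ/Δ MEP against 163 and 94.9 RPKM in Runx1wt/wt MEP. Both Runx1Δ/Δ libraries were lower than both Runx1wt/wt libraries in each gate, and the difference was -0.97 ± 0.23, adjusted p = 0.0278 in MEP and -0.35 ± 0.23, adjusted p = 0.39 in GMP. Runx1wt/wt MEP replicate 1, with 163 RPKM, was the highest of all libraries, and the call was lost without it. The same held without either Runx1Δ/Δ MEP library (log2 differences -1.09 and -0.86) or 1 of the GMP libraries (-0.97). Psmb9 also lost the call by limma without a filter (adjusted p = 0.0789), with only the MEP libraries (0.161) or a spread for each group (0.123). The difference without Runx1wt/wt MEP replicate 1 was -0.59. With the length trend of each library removed it was -0.61 in MEP (adjusted p = 0.0269), and in GMP the direction turned, to 0.10 (adjusted p = 0.732). Psmb8 was at 157 and 145 RPKM in XMP, and at 230.2 and 229.7 RPKM in Runx1Δ/Δ GMP against 308 and 283 RPKM in Runx1wt/wt GMP. In MEP, Psmb8 was at 131 and 121 RPKM in Runx1Δ/Δ MEP against 251 and 173 RPKM in Runx1wt/wt MEP. It too was below Runx1wt/wt in all 4 Runx1Δ/Δ libraries of GMP and MEP without a call (-0.36 ± 0.20, adjusted p = 0.315 in GMP and -0.72 ± 0.20, adjusted p = 0.0561 in MEP), and with the length trend removed the difference was -0.07 in GMP and -0.47 in MEP. Tap1 was at 69.2 and 77.8 RPKM in XMP, and at 54.8 and 58.8 RPKM in Runx1Δ/Δ GMP against 62.0 and 42.1 RPKM in Runx1wt/wt GMP. In MEP, Tap1 was at 57.7 and 66.8 RPKM in Runx1Δ/Δ MEP against 71.0 and 74.1 RPKM in Runx1wt/wt MEP. It was not called (0.15 ± 0.20, adjusted p = 0.676 in GMP and -0.22 ± 0.20, adjusted p = 0.539 in MEP). Psmb8 and Psmb9 have 1223 and 806 bp behind their values and Tap1 2950 bp.

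In the libraries of lanes 2 and 3 long genes lay below short genes, each set against its own mean. The effect of deletion was therefore set beside gene length. Across the 46 members, which share libraries and are not replicates, the Spearman correlation of the effect with length was 0.55 in GMP and 0.35 in MEP, beside 0.44 over all genes in each. With the length trend of each library removed it was 0.23 and 0.05. The median effect of the members was 0.60 for the 23 longer and 0.33 for the 23 shorter members in GMP as deposited, and 0.55 and 0.46 with the trend removed. In MEP it was 0.47 for the longer and 0.28 for the shorter members as deposited, and the order turned with the trend removed, to 0.35 and 0.50. The median over all 46 was 0.54 in GMP and 0.38 in MEP with the trend removed, beside 0.51 and 0.40 as deposited. In that fit 16 members were called higher in GMP, among them all 8 named above, and Isg15, Isg20, Irgm1 and Oas1a joined those called higher in MEP. Removal of the trend turned the sign of 3 members in GMP, Psmb9, Ifi35 and Ifi47, and of 4 in MEP, Bst2, Ifi35, Usp18 and Ifit2, none of which was called there in either fit. Positive differences then numbered 43 in GMP and 41 in MEP, against 40 and 39 as deposited. In lanes 4 and 5 alone the Runx1wt/wt MEP group is left with replicate 2 only. There 5 members turned sign in MEP, Bst2, Ifi35, Ifit2, Samd9l and Herc6, and 38 were positive.

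**Figure D4:**
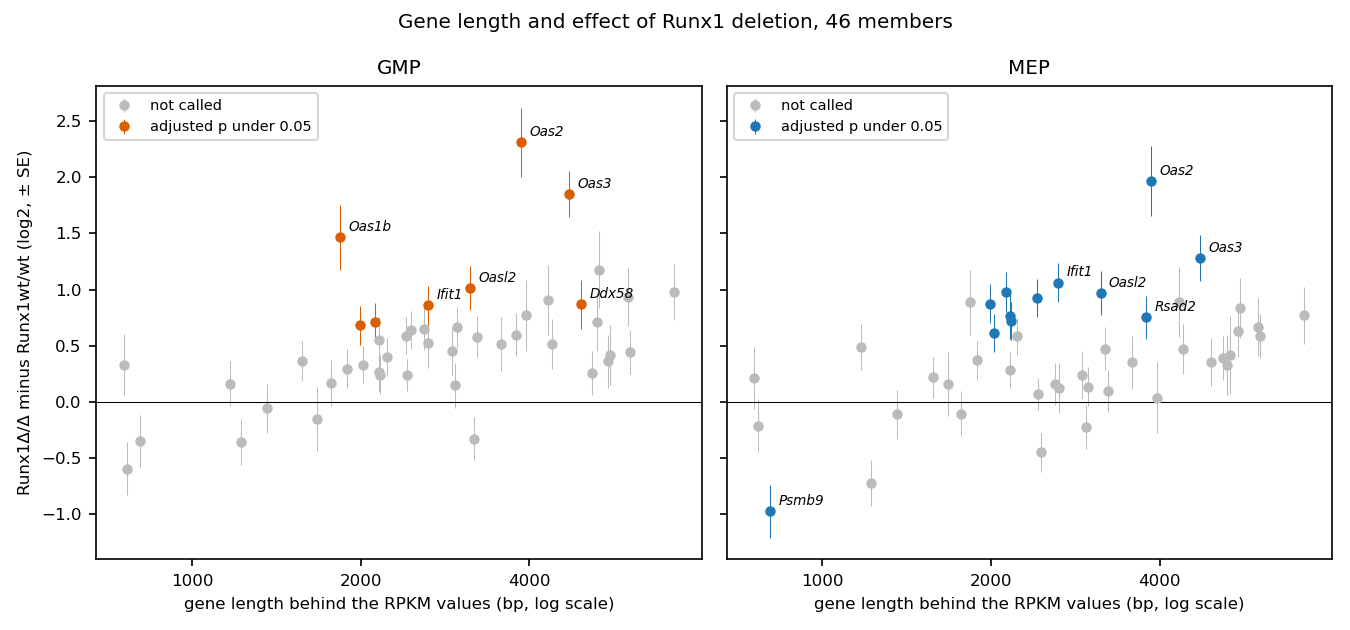
Log2 difference ± SE between Runx1Δ/Δ and Runx1wt/wt (y axis) against the gene length behind the RPKM values (x axis, log scale) for the 46 tested members, in GMP (left) and MEP (right). Coloured points passed the test; Oas2, Oas3 and Oas1b stand above members of like length in GMP, and Bst2 and Psmb9, among the shortest, are below 0 in both gates as deposited, while with the length trend removed Psmb9 is at 0.10 in GMP and Bst2 at 0.17 in MEP.

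XMP, which shares CD16/32 with GMP and CD150 with MEP, was compared with both Runx1Δ/Δ gates. Against Runx1Δ/Δ GMP, 4 members were higher in XMP, Isg20, Rsad2, Usp18 and Parp12 (9.75% of all genes tested were called higher), and 3 were lower, Gbp3, Mx1 and Bst2 (9.9% of all genes). These shares are close to or below the background. Both XMP libraries were above both Runx1Δ/Δ GMP libraries for 23 members (37.4% of all genes) and below both for 6 (28.6% of all genes). The members' median difference was 0.20, beside 0.05 over all genes. Isg20 was at 33.2 and 31.4 RPKM in XMP against 7.56 and 8.86 RPKM in Runx1Δ/Δ GMP (1.86 ± 0.20, adjusted p = 5.02e-05), and Gbp3 was at 3.26 and 2.93 RPKM in XMP against 21.3 and 21.5 RPKM in Runx1Δ/Δ GMP (-2.45 ± 0.22, adjusted p = 1.17e-05). The groups were far apart for both, and these calls, with those of Mx1 (-0.93 ± 0.18, adjusted p = 0.00273) and Rsad2 (1.03 ± 0.19, adjusted p = 0.00224), held under each alternative run. Usp18 (0.93 ± 0.20, adjusted p = 0.00643) lost its call without Runx1Δ/Δ GMP replicate 1 (0.115) or XMP replicate 1 (0.0652), and Parp12 (0.66 ± 0.18, adjusted p = 0.0256) without any 1 of those 4 libraries (0.0708 to 0.235). Bst2 (-0.79 ± 0.24, adjusted p = 0.0381) lost its call without any 1 of the same 4 (log2 differences -0.9 to -0.68). The same held without either of the Runx1wt/wt GMP libraries (-0.79) and, by limma, without a filter (adjusted p = 0.0921). The count of 7 was 4 without XMP replicate 1 or Runx1Δ/Δ GMP replicate 1 and 12 without either Runx1wt/wt MEP library. GMP markers stood at 135 to 171 RPKM in XMP and at 7780 to 8076 RPKM in Runx1Δ/Δ GMP, and their part in these differences was not tested.

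Against Runx1Δ/Δ MEP, 0 members were higher in XMP (5.14% of all genes tested were called higher; 8 members had an unadjusted p under 0.05 in either direction) and 3 were lower, Oasl1, Cmpk2 and Rtp4 (2.6% of all genes). In either direction 7.74% of all genes were called. Oasl1 was at 4.14 and 4.14 RPKM in XMP against 11.2 and 10.8 RPKM in Runx1Δ/Δ MEP (-1.22 ± 0.18, adjusted p = 0.00237), and this call held under each alternative run. Cmpk2 (-1.06 ± 0.19, adjusted p = 0.0071) lost its call without XMP replicate 2 (log2 difference -0.9) or Runx1Δ/Δ MEP replicate 1 (-0.99). Rtp4 (-0.67 ± 0.18, adjusted p = 0.0442) lost it without any 1 of the XMP and Runx1Δ/Δ MEP libraries (log2 differences -0.69 to -0.66). Its call also ended without any 1 of the GMP libraries (-0.67) and, by limma, without a filter (adjusted p = 0.0608). The count of 3 was 1 without XMP replicate 2 or Runx1Δ/Δ MEP replicate 1, 2 without the other XMP or Runx1Δ/Δ MEP library or either Runx1Δ/Δ GMP library, and 6 without either Runx1wt/wt MEP library. Both XMP libraries were below both Runx1Δ/Δ MEP libraries for 19 members (20.1% of all genes) and above both for 11 (33.6% of all genes). For Oas2, Oas3, Oas1b and Oas1a the differences between XMP and Runx1Δ/Δ MEP were within 0.12 on the log2 scale. Their standard errors were 0.17 to 0.31. Over all 7 OAS members the differences ran from -1.22 (Oasl1) to 0.37. Oas1g was at 6.03 and 5.30 RPKM in XMP against 4.31 and 3.99 RPKM in Runx1Δ/Δ MEP, without overlap.

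GMP and MEP also differed in their interferon-stimulated genes within a genotype. Among Runx1wt/wt cells, 1 member, Gbp3, was higher in GMP (11.7% of all genes tested were called higher) and 14 were lower (9.83% of all genes), with a median of -0.44 beside -0.06. The 14 were Isg20, Samd9l, Oas1b, Isg15, Ddx58, Oas3, Rtp4, Usp18, Parp12, Xaf1, Irgm1, Gbp2, Ifit1 and Oasl1. Among Runx1Δ/Δ cells, 4 were higher in GMP, Gbp3, Mx1, Psmb8 and Psmb9 (14.1% of all genes), and 11 were lower, among them Isg20, Cmpk2, Irgm1, Ifit1 and Oasl1 (10.4% of all genes). Isg20 was at 7.56 and 8.86 RPKM in Runx1Δ/Δ GMP against 44.3 and 43.9 RPKM in Runx1Δ/Δ MEP (-2.29 ± 0.20, adjusted p = 7.1e-06), and at 8.54 and 6.07 RPKM in Runx1wt/wt GMP against 36.3 and 26.7 RPKM in Runx1wt/wt MEP (-1.97 ± 0.20, adjusted p = 2.87e-05). Gbp3 was at 21.3 and 21.5 RPKM in Runx1Δ/Δ GMP against 3.44 and 4.19 RPKM in Runx1Δ/Δ MEP (2.22 ± 0.22, adjusted p = 1.95e-05), and at 18.6 and 11.4 RPKM in Runx1wt/wt GMP against 3.23 and 3.59 RPKM in Runx1wt/wt MEP (1.83 ± 0.22, adjusted p = 0.000105). Both genes thus separated the gates in both genotypes without overlap, and these 4 calls held under each alternative run. Cmpk2 was at 6.35 and 8.08 RPKM in Runx1Δ/Δ GMP against 20.1 and 18.3 RPKM in Runx1Δ/Δ MEP (-1.30 ± 0.19, adjusted p = 0.00035), a difference that also held. Of the other calls among Runx1Δ/Δ cells, those of Mx1, Irgm1 and Ifit1 held likewise, and each of the other 13 calls among Runx1wt/wt cells was lost under at least 1 alternative. The 15 calls among Runx1wt/wt cells became 6 without Runx1wt/wt GMP replicate 2 and 24 without Runx1wt/wt MEP replicate 1, and those among Runx1Δ/Δ cells 6 without Runx1Δ/Δ GMP replicate 1, 9 without Runx1Δ/Δ GMP replicate 2 and 7 without Runx1Δ/Δ MEP replicate 2.

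**Figure D5:**
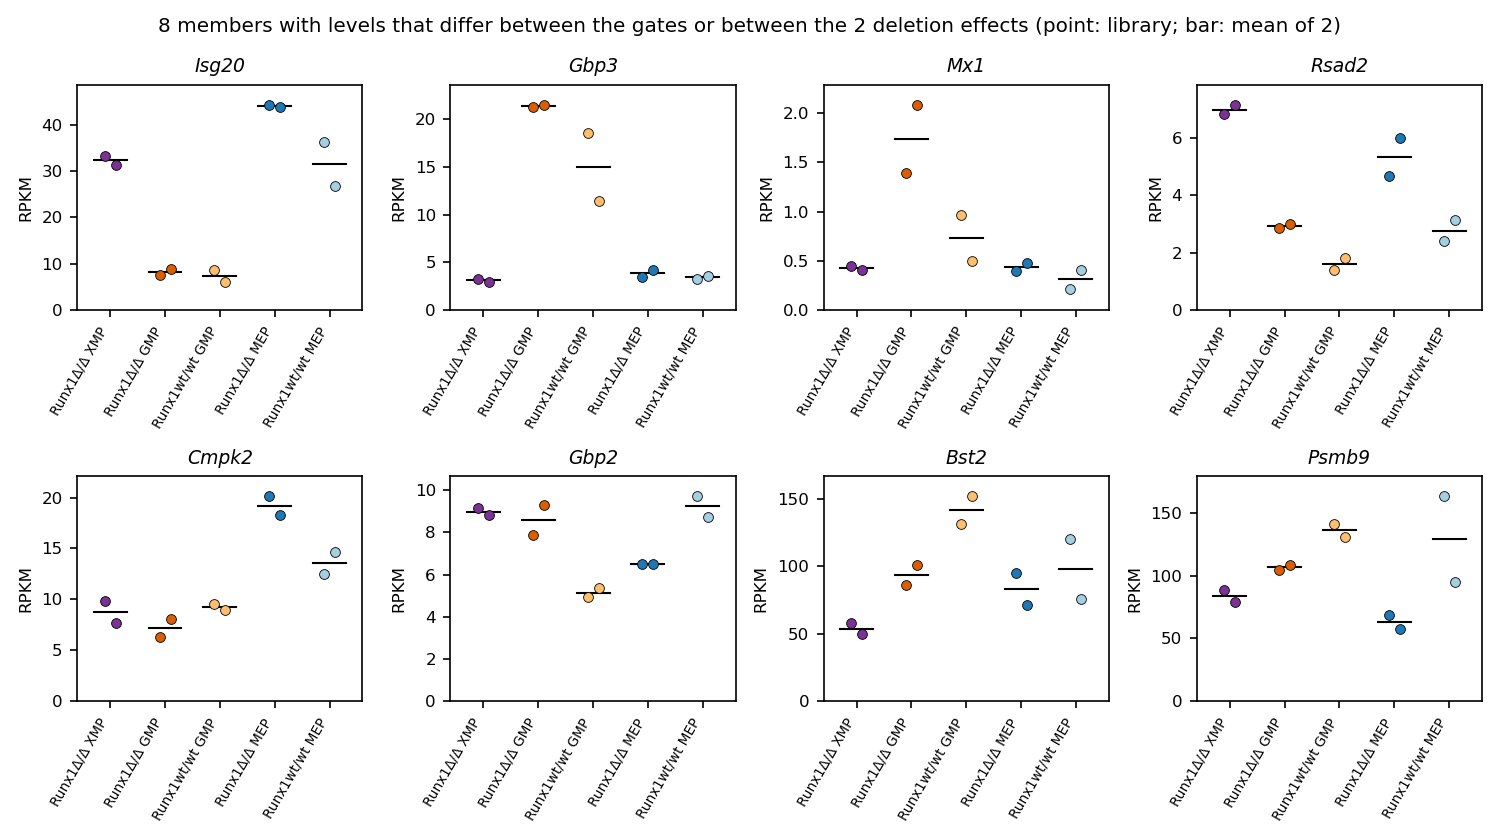
RPKM of Isg20, Gbp3, Mx1, Rsad2, Cmpk2, Gbp2, Bst2 and Psmb9 in each library (points) with the mean of the 2 libraries of a group (bars), in the order XMP, Runx1Δ/Δ GMP, Runx1wt/wt GMP, Runx1Δ/Δ MEP and Runx1wt/wt MEP. Isg20 is under 9 RPKM in both GMP groups and above 26 RPKM elsewhere, Gbp3 is above 11 RPKM in both GMP groups and below 5 RPKM elsewhere, and Gbp2 and Cmpk2 differ between the genotypes in opposite directions in GMP and MEP.

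The wider pathway was read from 62 symbols, of which 56 had a row and 32 were tested. No interferon gene was tested: of 19 ligand rows 7 were at 0 in every library, no library had more than 10 reads of any of them, and the highest level was 0.157 RPKM. Interferon made by other cells of the animal is not measured in sorted progenitors. Receptors for type I interferon were present in all groups. Ifnar1 was at 10.5 and 13.0 RPKM in XMP, and at 14.7 and 16.8 RPKM in Runx1Δ/Δ GMP against 11.1 and 9.45 RPKM in Runx1wt/wt GMP. In MEP, Ifnar1 was at 8.34 and 10.6 RPKM in Runx1Δ/Δ MEP against 6.05 and 8.61 RPKM in Runx1wt/wt MEP. Ifnar2 was at 23.4 and 24.9 RPKM in XMP, and at 33.5 and 39.7 RPKM in Runx1Δ/Δ GMP against 37.3 and 35.0 RPKM in Runx1wt/wt GMP. In MEP, Ifnar2 was at 22.3 and 24.9 RPKM in Runx1Δ/Δ MEP against 19.0 and 18.9 RPKM in Runx1wt/wt MEP. Neither was called for deletion. Ifngr1, a chain of the interferon gamma receptor, was at 48.4 and 58.2 RPKM in XMP, and at 118 and 97.7 RPKM in Runx1Δ/Δ GMP against 98.3 and 113 RPKM in Runx1wt/wt GMP. In MEP, Ifngr1 was at 61.8 and 85.1 RPKM in Runx1Δ/Δ MEP against 139.7 and 115 RPKM in Runx1wt/wt MEP. It was lower in Runx1Δ/Δ MEP (-0.80 ± 0.21, adjusted p = 0.0403). The call ended without any 1 of the 4 GMP or 2 XMP libraries (log2 difference -0.80 in each). It also ended without Runx1Δ/Δ MEP replicate 1 (-0.57) or Runx1wt/wt MEP replicate 1 (-0.66), and in lanes 4 and 5 alone (-0.66). By limma it was lost with quantile normalization (adjusted p = 0.121), only the MEP libraries in the fit (0.185) or a spread for each group (0.322). The same held without a filter (0.0852) and with a mean of at least 5 RPKM (0.0557). Ifngr2 was at 5.33 and 5.44 RPKM in XMP, and at 16.9 and 21.7 RPKM in Runx1Δ/Δ GMP against 20.04 and 22.3 RPKM in Runx1wt/wt GMP. In MEP, Ifngr2 was at 6.92 and 6.27 RPKM in Runx1Δ/Δ MEP against 5.18 and 4.09 RPKM in Runx1wt/wt MEP. It was lower in XMP and the MEP groups than in each GMP library, and was not called for deletion.

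Among receptor kinases and transcription factors 1 of 9 was higher in each gate, the same gene, Irf7, the regulator that amplifies type I interferon. Irf7 was at 15.0 and 15.0 RPKM in XMP, and at 7.75 and 11.5 RPKM in Runx1Δ/Δ GMP against 5.51 and 4.70 RPKM in Runx1wt/wt GMP. In MEP, Irf7 was at 23.4 and 26.1 RPKM in Runx1Δ/Δ MEP against 12.6 and 11.4 RPKM in Runx1wt/wt MEP. Its genotypes stood apart, with 0.78 ± 0.20, adjusted p = 0.0489 in GMP and 0.99 ± 0.20, adjusted p = 0.0121 in MEP. The GMP call ended without any 1 of the 4 GMP libraries (log2 differences 0.52 to 1.03). It also ended without any 1 of the XMP and Runx1Δ/Δ MEP libraries (0.78). By limma it was lost without a filter (adjusted p = 0.0788), with a mean of at least 5 RPKM (0.0663) and with quantile normalization (0.0954). The MEP call was lost with only the MEP libraries in the fit (0.0751) and with a spread for each group (0.249). It also ended without Runx1Δ/Δ MEP replicate 2 (log2 difference 0.91). Irf9, the DNA-binding part of the type I complex, was at 28.001 and 30.4 RPKM in XMP, and at 19.5 and 24.3 RPKM in Runx1Δ/Δ GMP against 19.9 and 17.7 RPKM in Runx1wt/wt GMP. In MEP, Irf9 was at 33.7 and 39.8 RPKM in Runx1Δ/Δ MEP against 25.5 and 24.9 RPKM in Runx1wt/wt MEP. It was not called for deletion (0.20 ± 0.17, adjusted p = 0.5 in GMP and 0.52 ± 0.17, adjusted p = 0.0985 in MEP). Among inhibitors of interferon signalling, 1 of 9, Socs3, was higher in both gates. Socs3, which restrains cytokine receptors and is induced by many cytokines besides interferons, was at 3.53 and 6.02 RPKM in XMP, and at 8.02 and 7.64 RPKM in Runx1Δ/Δ GMP against 1.16 and 0.898 RPKM in Runx1wt/wt GMP. In MEP, Socs3 was at 2.62 and 2.21 RPKM in Runx1Δ/Δ MEP against 0.494 and 0.590 RPKM in Runx1wt/wt MEP. The difference was 2.12 ± 0.21, adjusted p = 0.000183 in GMP and 1.15 ± 0.21, adjusted p = 0.00741 in MEP. The GMP call held under each alternative run. By limma the MEP call was lost with a spread for each group (adjusted p = 0.13). It also ended in lanes 4 and 5 alone (log2 difference 1.1) and without Runx1Δ/Δ MEP replicate 1 (1.06). Socs1, the inhibitor most tied to interferon gamma signalling, was at 5.04 and 3.41 RPKM in XMP, and at 1.18 and 2.44 RPKM in Runx1Δ/Δ GMP against 1.36 and 2.99 RPKM in Runx1wt/wt GMP. In MEP, Socs1 was at 2.24 and 0.969 RPKM in Runx1Δ/Δ MEP against 2.84 and 2.08 RPKM in Runx1wt/wt MEP. Its genotypes overlapped in both gates, without a call. Of 9 tested adaptors and sensors 1, Tlr7, a receptor for single-stranded RNA, was higher in Runx1Δ/Δ GMP (0.60 ± 0.14, adjusted p = 0.036) at 1.16 and 1.44 RPKM in Runx1Δ/Δ GMP against 0.422 and 0.602 RPKM in Runx1wt/wt GMP. That call ended without any 1 of the 4 GMP libraries (log2 differences 0.52 to 0.69) or of the Runx1Δ/Δ MEP libraries (0.60). By limma it was also lost with a pseudocount of 0.1 RPKM (adjusted p = 0.129) and with quantile normalization (0.101). Without the mean-variance trend (0.0728) and with the length trend removed (0.0619) it was lost too. Taking the lists as 1, 3 of 32 pathway genes were higher in Runx1Δ/Δ GMP and 0 lower, beside 3.15% and 2.07% of all genes tested. In Runx1Δ/Δ MEP 2 were higher and 1 lower, beside 3.97% and 4.03% of all genes.

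Mature cells known for strong interferon programmes were looked for by their markers. The summed level of 10 markers of plasmacytoid dendritic cells, the main makers of type I interferon, was 9.98 to 11.4 RPKM in XMP, 17.8 to 19.1 RPKM in Runx1Δ/Δ GMP, 19.3 to 20.6 RPKM in Runx1wt/wt GMP, 7.43 to 9.04 RPKM in Runx1Δ/Δ MEP and 11.9 to 15.6 RPKM in Runx1wt/wt MEP. The defining markers Siglech and Ccr9 were under 1 RPKM in every library. In the GMP groups the sum was mostly Tcf4 and Dntt. Tcf4 was at 9.61 and 9.10 RPKM in Runx1Δ/Δ GMP against 7.28 and 8.95 RPKM in Runx1wt/wt GMP. For Dntt these were 6.82 and 7.25 RPKM against 6.55 and 5.34 RPKM. Of the 4 markers tested by limma, Cox6a2 was called lower in Runx1Δ/Δ GMP (-1.16 ± 0.16, adjusted p = 0.00135) and 0 higher. In Runx1Δ/Δ MEP, Ly6d was called lower (-1.08 ± 0.27, adjusted p = 0.0355) and 0 higher. The 12 rows of monocyte, macrophage and conventional dendritic cell markers summed to 16.5 to 17.0 RPKM in XMP, 37.2 to 40.3 RPKM in Runx1Δ/Δ GMP against 42.2 to 51.5 RPKM in Runx1wt/wt GMP, and 7.41 to 10.9 RPKM in Runx1Δ/Δ MEP against 3.18 to 4.66 RPKM in Runx1wt/wt MEP, with Cx3cr1, Xcr1 and Fcgr1 under 1 RPKM throughout. Markers of mature neutrophils summed to 148.3 to 153.3 RPKM in Runx1Δ/Δ GMP against 166.7 to 381 RPKM in Runx1wt/wt GMP, and 21.7 to 26.4 RPKM in Runx1Δ/Δ MEP against 40.1 to 49.9 RPKM in Runx1wt/wt MEP. The highest sum rests on S100a8 and S100a9, at 254 and 101 RPKM in Runx1wt/wt GMP replicate 2, and neither was called in GMP. Of the 8 neutrophil markers tested, 1 was called higher and 0 lower in Runx1Δ/Δ GMP, and 1 higher and 1 lower (S100a9) in Runx1Δ/Δ MEP. The higher one was in both gates Cxcr2, a chemokine receptor, at 13.1 and 12.5 RPKM in Runx1Δ/Δ GMP against 6.48 and 5.64 RPKM in Runx1wt/wt GMP (0.97 ± 0.18, adjusted p = 0.0101), and at 2.29 and 2.26 RPKM in Runx1Δ/Δ MEP against 0.497 and 0.767 RPKM in Runx1wt/wt MEP (1.01 ± 0.18, adjusted p = 0.00654). Those of lymphocytes and NK cells, mostly Nkg7, summed to 94.1 to 122.6 RPKM in Runx1Δ/Δ GMP against 269.1 to 332 RPKM in Runx1wt/wt GMP, and 6.12 to 9.73 RPKM in Runx1Δ/Δ MEP against 126.1 to 183.5 RPKM in Runx1wt/wt MEP, with the T-cell genes Cd3e, Cd3d and Cd3g under 1 RPKM in each library. In GMP both libraries of Runx1Δ/Δ were below both of Runx1wt/wt in each of the 4 sums, though single markers such as Cxcr2 went the other way. In MEP the monocyte and dendritic sum was higher, with Ccr2 and Clec9a called. Their part in the results was not tested.

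The authors' deposited table holds FDR-corrected p-values of Baggerley's test for the same groups. The shares given here are over its 23240 genes, those at 0 throughout included, and not over the genes tested by limma. Under 0.05 there, in the authors' deposited table, were Oas2 between Runx1Δ/Δ and Runx1wt/wt GMP (0.925% of all genes) and Lgals3bp and Sp100 between Runx1Δ/Δ and Runx1wt/wt MEP (0.775% of all genes). The other deletion calls made by limma were not under 0.05 in the authors' deposited table. By Baggerley's test Oas2 was at 0.661 in MEP, and Oas3 at 0.078 in GMP and 0.267 in MEP. Between XMP and Runx1Δ/Δ GMP the authors' deposited table has 4 members under 0.05, Isg20, Bst2, Gbp3 and Psmb8 (3.74% of all genes), and between XMP and Runx1Δ/Δ MEP 0 (1.64% of all genes). Between Runx1wt/wt MEP and GMP the authors' deposited table has 2, Isg20 and Psmb8 (3.1% of all genes). Between Runx1Δ/Δ MEP and GMP it has 7, Isg20, Irgm1, Gbp3, Cmpk2, Lgals3bp, Psmb8 and Psmb9 (4.6% of all genes).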

How the data were processed

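The authors' deposited table gives RPKM for 23240 genes in 10 libraries and, per the file headers, p-values and FDR-corrected p-values of Baggerley's test between groups. Per the labels' protocols, peqGOLD TriFast gave the RNA, and either TruSeq V2 LT or NEBNext Ultra was the library kit; the kit of each library is not stated. The submitters' processing notes name mm9. Not given in the sources used here are the aligner, the counting and its use of strand. Groups came from the labels, and lanes and library numbers from the column headers.

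The genes that reached 1 RPKM in 2 or more libraries were fitted as log2(RPKM + 1) with limma 3.58.1 in R 4.3.3 (eBayes with trend, 1 mean for each group, 10 libraries, 5 residual degrees of freedom), and p-values were adjusted by Benjamini-Hochberg over 10905 genes. Fold changes are log2 ± SE. The fit was also run on simulated data with independent noise and planted changes. These held no lane, length or batch trend, so the run does not show how the fit handles such trends. Whole reads within 0.01 read were recovered from RPKM steps for 19264 genes, 72 had no such solution and 3904 were at 0 throughout, which gave depth and gene length (1084 lengths were settled with an annotation). Replicates correlated at 0.968 to 0.994.

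The members and lists were chosen with earlier results of these data known. Values in each library are given for members called in a contrast, those with the smallest p and those of at least 20 RPKM in some group, with others added for their role; pathway genes are named where called or where they are receptors or main regulators. Alternatives were the pseudocount, the filter, quantile normalization, no trend, only the groups compared, a spread for each group, removal of the length trend, lanes 4 and 5 alone, a replicate or library-number term, and leaving out each library. The same alternatives were run on the pathway genes called for deletion, a choice made after seeing the data. Shared sequence was the share of 50-base words of the longest annotated transcript found in another gene. Some pathway genes are counted in their lists and not reported here by name.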

Additional observations from a re-analysis of the deposited data

Results flagged for a closer look

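Gbp2 and Cmpk2 differed between the genotypes in opposite directions in GMP and MEP, without overlap between libraries. For Gbp2 the effect of Runx1 deletion in GMP minus that in MEP was 1.09 ± 0.24 on the log2 scale, with an adjusted p of 0.0529 by limma. For Cmpk2 it was -0.80 ± 0.27, with an adjusted p of 0.237. Neither difference passed the test. Such opposite directions without overlap were found for 2 of 46 members (4.35%) and for 3.48% of all genes tested.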

How the results depend on the processing

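Of 60 calls of single members, 15 held under every alternative run and 0 reversed; over the 1223 alternatives of these calls 982 kept the call and 241 lost it. The members called in GMP (8) became 5 without a filter, 3 with a mean of at least 5 RPKM, 19 with only the groups compared, 22 with a spread for each group and 16 with the length trend removed. Those in MEP (12) became 7 with a mean of at least 5 RPKM, 2 with only the groups compared, 0 with a spread for each group and 7 in lanes 4 and 5 alone. For the difference of deletion effects (0) the count was 1 without trend and 1 with the length trend removed. XMP against Runx1Δ/Δ GMP (7) gave 13 with only the groups compared, 16 with a spread for each group and 13 in lanes 4 and 5. XMP against Runx1Δ/Δ MEP (3) gave 7 with quantile normalization, 6 with a spread for each group, 5 with the length trend removed, 7 in lanes 4 and 5 and 5 with the library-number run as a term. Runx1wt/wt GMP against Runx1wt/wt MEP (15) gave 5 with only the groups compared, 3 with a spread for each group and 23 with the length trend removed. The cause was not tested. Leaving out 1 library gave 2 to 20 calls in GMP, 3 to 25 in MEP, 0 to 2 for the difference, 4 to 12 and 1 to 6 for XMP against Runx1Δ/Δ GMP and MEP, and 6 to 24 and 6 to 17 between the gates in Runx1wt/wt and Runx1Δ/Δ cells. Lanes 4 and 5 hold no Runx1wt/wt GMP library and give no value for its comparisons. Of Runx1wt/wt MEP they hold replicate 2 only, so that side of the MEP comparison has no replicate there. Same-numbered libraries correlated at -0.47 to 0.78 in their deviations from the group means, so the titles' numbers are taken to be only numbers. The replicate block gave 7 calls in GMP (5 shared with the 8) and 12 in MEP (11 shared), 8 and 2 for XMP against Runx1Δ/Δ GMP and MEP, and 14 each between the gates. Under it Ddx58 (0.0551), Oasl1 (0.0667), Oas1g (0.0726) and Irf7 (0.0614) lost the GMP call and Igtp (0.0683) the MEP call. Paired by the runs of library numbers in the column headers, the 6 pairs among the groups other than Runx1wt/wt GMP correlated at 0.30 to 0.78 and the 4 pairs with it at -0.15 to 0.06. What such a run stands for is not given in the labels, and a shared batch was not tested beyond this. The run as a term gave 9 calls in GMP and 14 in MEP, with all 8 and 12 kept, 8 and 5 for the XMP comparisons, and 16 and 15 between the gates.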
